A study of Mus musculus with 6 samples.

Results

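The 10 genes described here belong to the hypoxia-inducible factor (HIF) pathway: the 2 HIF alpha subunit genes Hif1a and Epas1, the 3 HIF prolyl hydroxylase genes Egln1, Egln2 and Egln3, the ubiquitin ligase adaptor gene Vhl, and the non-glycolytic hypoxia targets Bnip3, Ak4, P4ha1 and Kdm5b. They were taken by symbol from the deposited table, where all 10 of 10 were found among 18057 genes, and all 10 passed the filter on low counts. They were chosen by role, with the TMM-scaled CPM of each library and the fold changes between Piezo1 KO and control already known. The differences between these groups are therefore given for the 10 genes as a description, without a test.

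The libraries came from group 2 innate lymphoid cells (ILC2s), tissue lymphocytes that make type 2 cytokines, sorted from mouse lung. The Piezo1 KO group (3 libraries) has the genotype Il7rcrePiezo1flx, a floxed allele of the mechanically gated cation channel gene Piezo1 with Cre expressed from Il7r, a locus active in many lymphoid cells and not in ILC2s alone. The control group (3 libraries) has the genotype Il7rcre, so it carries the same Cre driver, and its sample titles read WT. In both groups the mice had received 3 intranasal doses of 1 µg IL-33, and the isolated cells were then cultured for 24 h in IL-2 plus IL-7, both at 10 ng/mL. The labels leave out the age of the mice, the oxygen level of the culture and whether the libraries of a group came from separate animals. P-values therefore rest on library-to-library spread alone, and that spread could be technical.

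Total estimated counts per library were 23549849 to 29733378 in Piezo1 KO and 13059046 to 33459904 in control. Piezo1 itself was at 150, 109 and 122 CPM (counts per 1000000 counts, scaled between libraries by TMM) in Piezo1 KO replicates 1, 2 and 3, against 247, 278 and 160 CPM in control replicates 1, 2 and 3. The groups did not overlap, and the log2 fold change of −0.85 ± 0.21 (SE) did not pass the threshold of 0.05 (adjusted p = 0.112 in edgeR, by Benjamini-Hochberg across the tested genes). In 12 alternatives its lowest adjusted p was 0.00189 and its highest 0.464. It passed in 3 of the 12: DESeq2 (0.00189), limma-voom (0.0157) and edgeR without control replicate 3 (0.0163). Which exons are floxed is not stated in the labels, and the count covers the whole gene.

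The HIF alpha proteins are made continuously and destroyed when oxygen is present. The EGLN enzymes, which need oxygen, iron and 2-oxoglutarate, hydroxylate prolines of the alpha subunit, and the VHL protein binds the hydroxylated form and directs it to the proteasome. When oxygen or the enzymes' activity is low, the alpha subunit persists, pairs with ARNT and binds DNA at short sites with the core ACGTG or GCGTG. Its targets include Egln3 and Egln1, which form a negative feedback, and genes for glucose use, mitophagy and collagen modification. HIF protein is regulated mainly after translation, and RNA levels do not measure it.

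The stretch of DNA in front of the start site is shown for the members with a window whose groups did not overlap. These are 5 members that were higher in Piezo1 KO, and Egln2, which was lower, and all carry the core. Hif1a, Egln1 and Vhl also have a window, but their groups overlapped and their sequences are not shown. Each sequence holds the 250 bases before a RefSeq transcript start in build GRCm38.p6, on the gene's strand, with matches to ACGTG or GCGTG on either strand in capitals (CACGT and CACGC are the same cores read on the other strand). Egln3 lies on the minus strand (chr12:54203875-54204124), Bnip3 on the minus strand (chr7:138909507-138909756), Ak4 on the plus strand (chr4:101419039-101419288, the most upstream of 4 listed starts), P4ha1 on the plus strand (chr10:59323046-59323295), Kdm5b on the plus strand (chr1:134559928-134560177) and Egln2 on the minus strand (chr7:27166803-27167052, the upstream of 2 listed starts).
Egln3: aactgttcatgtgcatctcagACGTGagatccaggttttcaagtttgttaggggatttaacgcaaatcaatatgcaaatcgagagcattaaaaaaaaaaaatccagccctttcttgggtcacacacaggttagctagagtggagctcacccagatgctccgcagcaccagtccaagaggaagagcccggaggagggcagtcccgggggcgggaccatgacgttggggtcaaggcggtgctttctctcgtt
Bnip3: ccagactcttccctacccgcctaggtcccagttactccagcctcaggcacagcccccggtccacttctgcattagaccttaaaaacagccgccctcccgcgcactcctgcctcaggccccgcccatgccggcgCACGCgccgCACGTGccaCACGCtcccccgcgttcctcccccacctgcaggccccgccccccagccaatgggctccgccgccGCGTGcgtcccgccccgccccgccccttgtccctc
Ak4: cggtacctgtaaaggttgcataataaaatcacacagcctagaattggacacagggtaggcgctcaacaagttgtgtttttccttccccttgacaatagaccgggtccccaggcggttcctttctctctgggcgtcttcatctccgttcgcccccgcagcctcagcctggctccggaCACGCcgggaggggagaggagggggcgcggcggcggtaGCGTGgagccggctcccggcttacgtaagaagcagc
P4ha1: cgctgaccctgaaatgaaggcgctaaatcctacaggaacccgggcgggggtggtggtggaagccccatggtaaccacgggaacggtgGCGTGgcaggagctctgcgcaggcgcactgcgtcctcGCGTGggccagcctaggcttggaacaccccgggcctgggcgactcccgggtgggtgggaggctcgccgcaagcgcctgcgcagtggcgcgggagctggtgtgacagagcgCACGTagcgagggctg
Kdm5b: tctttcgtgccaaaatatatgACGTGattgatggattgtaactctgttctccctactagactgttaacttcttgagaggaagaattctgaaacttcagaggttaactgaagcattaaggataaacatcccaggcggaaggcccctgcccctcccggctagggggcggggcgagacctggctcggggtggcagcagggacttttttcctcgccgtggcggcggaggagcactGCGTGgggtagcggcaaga
Egln2: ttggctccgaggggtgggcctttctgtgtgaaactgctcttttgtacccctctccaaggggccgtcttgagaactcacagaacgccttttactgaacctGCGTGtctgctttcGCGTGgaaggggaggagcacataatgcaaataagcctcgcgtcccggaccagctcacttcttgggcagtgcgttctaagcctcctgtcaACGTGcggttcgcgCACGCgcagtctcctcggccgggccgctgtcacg

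Counting a palindromic CACGTG once, these windows held 1 core in Egln3, 4 in Bnip3, 2 in Ak4, 3 in P4ha1, 2 in Kdm5b and 4 in Egln2. The core of Egln3 began 229 bases before the start. Of the 9 members with a promoter window, 8 held at least 1 core in any listed window, and Vhl held none. Epas1 is named only. Among tested genes with a window, 62% of 9644 held at least 1 core in any window, so a core is common in such windows. Egln2, lower in Piezo1 KO, held as many cores in this window as Bnip3, which was higher. A match is a description of the sequence and not a measured binding site.

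Among the HIF alpha genes, the level of Epas1 was 2.31-fold higher in Piezo1 KO than in control, and that of Hif1a differed by less than the spread among control libraries. Epas1 encodes HIF-2 alpha, known from endothelium and also found in immune cells, and lies on chromosome 17 (86753700 to 86833410, plus strand, GRCm38). It was at 59.1, 58.1 and 57.5 CPM in Piezo1 KO replicates 1, 2 and 3, against 24.25, 29.4 and 21.5 CPM in control replicates 1, 2 and 3. All 3 Piezo1 KO libraries lay above every control library, with means of 58.2 ± 0.807 CPM in Piezo1 KO and 25.05 ± 3.999 CPM in control (SD, n = 3 each), and the log2 fold change was 1.21 ± 0.13 (SE). Because these are bulk samples, more cells of a type and more RNA per cell cannot be told apart.

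Hif1a encodes HIF-1 alpha, the subunit that drives glycolytic genes, and lies on chromosome 12 (73901375 to 73947530, plus strand). It was at 857, 772 and 807 CPM in Piezo1 KO replicates 1, 2 and 3, against 1016, 1003 and 738 CPM in control replicates 1, 2 and 3. The groups overlapped, since control replicate 3 was the lowest of the 6 libraries, and the log2 fold change was −0.18 ± 0.13 (SE). On a per-length scale (CPM per kb of the gene's merged exons), Hif1a exceeded Epas1 13.2 ± 0.591-fold in Piezo1 KO and 34.9 ± 4.21-fold in control (SD, n = 3 each). Epas1 made up 6.78%, 7.36% and 6.99% of the summed per-kb level of both genes in Piezo1 KO replicates 1, 2 and 3, and 2.46%, 3.00% and 2.98% in control replicates 1, 2 and 3. These shares do not depend on the scaling between libraries. The antisense gene Gm15283 overlaps Hif1a, and its reads cannot be told apart from those of Hif1a where counting ignored strand. On the same annotation Hif1a also overlaps Gm49321, Epas1 overlaps AC096777.1, Egln2 overlaps Cyp2t4, and Bnip3 overlaps Gm45507 and Gm18258.

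Of the 3 HIF prolyl hydroxylase genes, Egln3 was higher and Egln2 lower in Piezo1 KO with groups that did not overlap, and the Egln1 groups overlapped. Egln3, encoding PHD3 (chromosome 12, 54178981 to 54203860, minus strand), was the member with the largest fold change. It was at 57.9, 71.5 and 63.4 CPM in Piezo1 KO replicates 1, 2 and 3, against 20.6, 18.6 and 21.3 CPM in control replicates 1, 2 and 3. The groups lay far apart, and the log2 fold change was 1.68 ± 0.12 (SE), a 3.20-fold higher level in Piezo1 KO.

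Egln2, encoding PHD1 (chromosome 7, 27158658 to 27166802, minus strand), had the lower level in Piezo1 KO, at 57.0, 52.1 and 47.6 CPM in replicates 1, 2 and 3, against 62.5, 83.9 and 66.0 CPM in control replicates 1, 2 and 3. The groups did not overlap, though Piezo1 KO replicate 1 and control replicate 1 were close, and the log2 fold change was −0.44 ± 0.13 (SE). Egln1, encoding PHD2, the main oxygen sensor in most tissues, was at 15.05, 18.3 and 21.1 CPM in Piezo1 KO replicates 1, 2 and 3, against 13.3, 13.5 and 18.0 CPM in control replicates 1, 2 and 3. These ranges overlapped, and the log2 fold change was 0.29 ± 0.18 (SE). Egln1 lies on chromosome 8 (124908587 to 124949324, minus strand, GRCm38), 2.36 Mb from Piezo1.

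The make-up of the hydroxylase transcripts differed between the groups, as the shares show. Of the summed per-kb level of the 3 genes, Egln3 made up 50.4% ± 3.11 in Piezo1 KO and 20.7% ± 3.06 in control (SD, n = 3 each). Egln2 made up 39.1% ± 4.25 in Piezo1 KO and 68.1% ± 4.89 in control, and Egln1 10.6% ± 1.83 in Piezo1 KO and 11.3% ± 2.26 in control (SD, n = 3 each). Per kb, Egln3 was above Egln2 in each Piezo1 KO library (ratios of 1.07, 1.44 and 1.40 in replicates 1, 2 and 3) and well below it in each control library (0.346, 0.233 and 0.340 in replicates 1, 2 and 3). The summed per-kb level itself was 47.8 ± 2.36 in Piezo1 KO and 37.0 ± 3.51 in control (SD, n = 3 each).

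**Figure D1:**
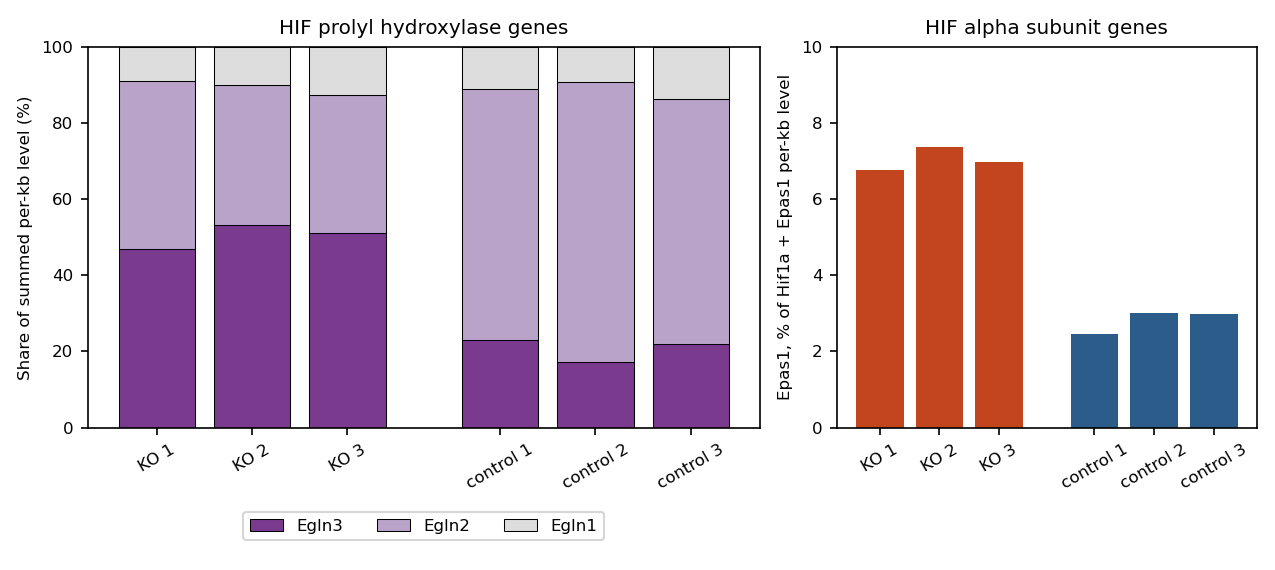
Left, share (%) of Egln3, Egln2 and Egln1 in their summed TMM-scaled CPM per kb of exon in each library, and right, Epas1 as a share (%) of Hif1a plus Epas1 on the same scale, with Piezo1 KO replicates before control replicates. Egln3 made up 47.0% to 53.1% in Piezo1 KO and 17.2% to 22.9% in control, and Epas1 6.78% to 7.36% in Piezo1 KO and 2.46% to 3.00% in control.

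Vhl, whose product recognises the hydroxylated alpha subunit, lies on chromosome 6 (113623959 to 113631633, plus strand) and differed between the groups by less than the spread within them. It was at 34.7, 39.2 and 36.6 CPM in Piezo1 KO replicates 1, 2 and 3, against 31.8, 43.4 and 32.9 CPM in control replicates 1, 2 and 3. All 3 Piezo1 KO values lay inside the control range, and the log2 fold change was 0.03 ± 0.14 (SE). Its sign was not fixed: leaving out single libraries moved it between −0.06 (without control replicate 1) and 0.17 (without control replicate 2).

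The 4 target genes outside glycolysis were all higher in Piezo1 KO, and in each the groups did not overlap. Ak4 encodes an adenylate kinase of the mitochondrial matrix (chromosome 4, 101419277 to 101466995, plus strand). It was at 32.3, 34.1 and 33.9 CPM in Piezo1 KO replicates 1, 2 and 3, against 12.3, 16.0 and 14.2 CPM in control replicates 1, 2 and 3, a log2 fold change of 1.23 ± 0.13 (SE). The Piezo1 KO libraries lay close together, each above every control library, a 2.35-fold higher level. Bnip3, a mitophagy receptor of the outer mitochondrial membrane (chromosome 7, 138890836 to 138909519, minus strand), was at 265, 346 and 305 CPM in Piezo1 KO replicates 1, 2 and 3, against 159, 193 and 159 CPM in control replicates 1, 2 and 3. Its log2 fold change was 0.84 ± 0.13 (SE), a 1.79-fold higher level in Piezo1 KO, with every Piezo1 KO library above every control library.

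Kdm5b encodes a JmjC demethylase of methylated histone H3 (chromosome 1, 134560171 to 134635285, plus strand). It was at 59.1, 49.3 and 48.3 CPM in Piezo1 KO replicates 1, 2 and 3, against 35.1, 31.9 and 26.5 CPM in control replicates 1, 2 and 3, a log2 fold change of 0.74 ± 0.14 (SE). P4ha1, the catalytic subunit of a collagen prolyl hydroxylase (chromosome 10, 59323296 to 59373304, plus strand), was at 89.8, 89.4 and 91.4 CPM in Piezo1 KO replicates 1, 2 and 3, against 64.65, 64.3 and 52.6 CPM in control replicates 1, 2 and 3. Its log2 fold change of 0.57 ± 0.10 (SE) was the smallest of the 4 target genes, while its Piezo1 KO libraries were the most alike of any member, with a coefficient of variation of 1.18% in Piezo1 KO and 11.3% in control. In both genes every Piezo1 KO library lay above every control library. Both enzymes use oxygen and 2-oxoglutarate, as the EGLN enzymes do.

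**Figure D2:**
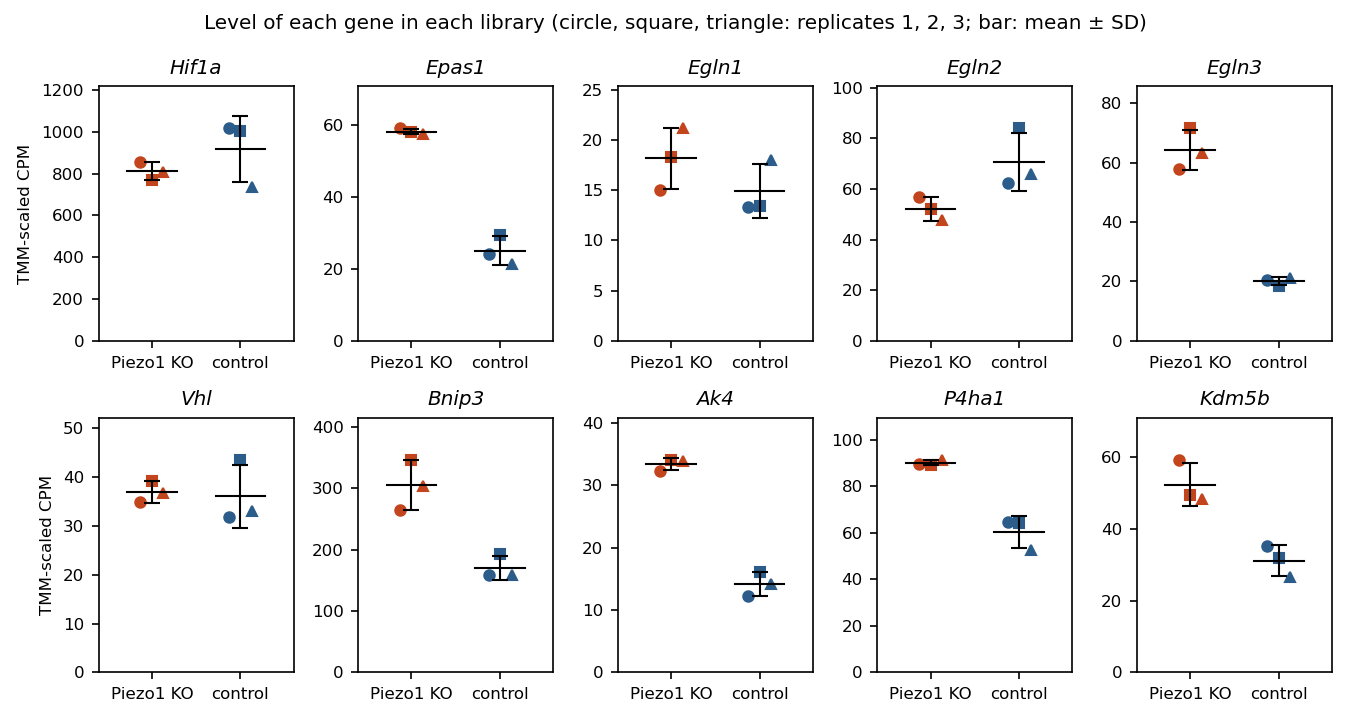
TMM-scaled CPM (y axis, from 0) of each of the 10 genes in the 3 Piezo1 KO libraries and the 3 control libraries (x axis), with the mean and SD as bars and a symbol per replicate number. Epas1, Egln3, Bnip3, Ak4, P4ha1 and Kdm5b lie higher in every Piezo1 KO library than in any control library, Egln2 lies lower, and Hif1a, Egln1 and Vhl overlap.

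Of the 10 members, 7 did not overlap between the groups, a pattern found in 20.6% of all tested genes. In the fit over all genes 6 members had an adjusted p under 0.05, all higher in Piezo1 KO, where 1.51% of the 14149 tested genes were called (1.00% higher and 0.509% lower). The count of called members was 3 without Piezo1 KO replicate 1, 2 or 3, 2 without control replicate 1, 6 without control replicate 2 and 5 without control replicate 3. The count over all tested genes also moved. It was 35, 33 and 53 without Piezo1 KO replicates 1, 2 and 3, and 34, 297 and 237 without control replicates 1, 2 and 3. Since the members were named with this contrast known, nothing is read from these counts or shares. The median log2 fold change was 0.66 over the 10 members and 0.018 over all tested genes. The lowest count behind a value was 190 (Ak4 in control replicate 3) and the highest 33584 (Hif1a in control replicate 2).

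Fold changes were also recomputed under other processing and with each library left out. For the fits with 1 library left out a small move was close to given in advance, so nothing is read from it. Over 13 alternatives the log2 fold change lay between 1.59 and 1.73 for Egln3, between 1.14 and 1.35 for Ak4, and between 1.11 and 1.33 for Epas1. It lay between 0.74 and 0.92 for Bnip3, 0.62 and 0.83 for Kdm5b, and 0.48 and 0.62 for P4ha1. Among the other members the range was −0.52 to −0.32 for Egln2, −0.32 to −0.10 for Hif1a and 0.17 to 0.44 for Egln1.

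**Figure D3:**
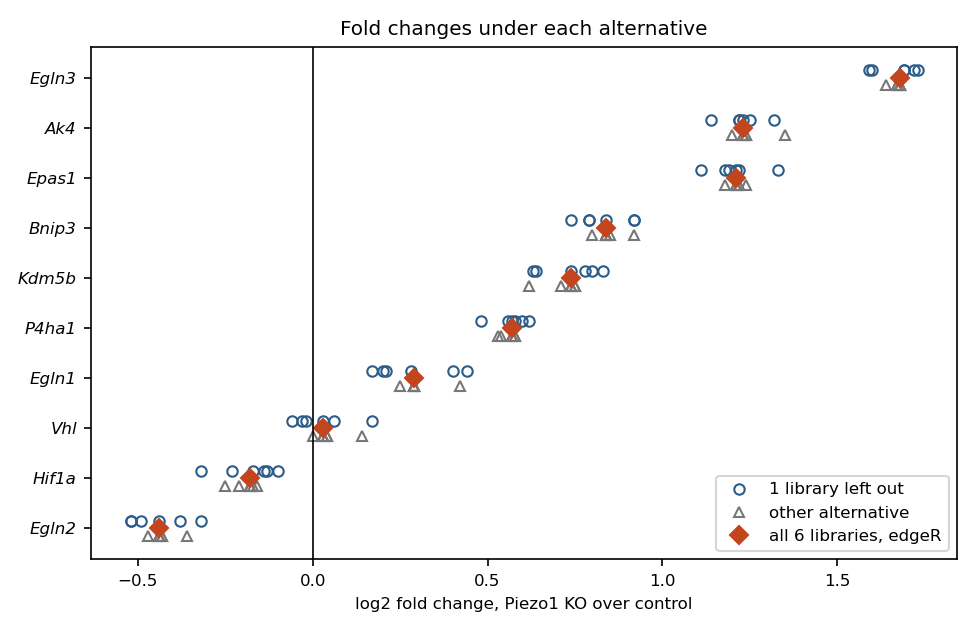
Log2 fold change of each member, Piezo1 KO over control (x axis), with all 6 libraries in edgeR (filled diamonds), with 1 library left out (open circles) and under the other alternatives (open triangles). The points of Vhl fall on both sides of 0, from −0.06 to 0.17, and those of the other 9 genes stay on their own side.

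Levels of the 10 genes can be ranked per exon length. In Piezo1 KO the order was Hif1a at 138 ± 7.28, Bnip3 at 135 ± 17.95, Egln3 at 24.1 ± 2.57, P4ha1 at 21.9 ± 0.259 and Egln2 at 18.7 ± 1.68 CPM per kb (SD, n = 3), followed by Vhl, Epas1, Ak4, Egln1 and Kdm5b. In control it was Hif1a at 156 ± 26.6, Bnip3 at 75.3 ± 8.57, Egln2 at 25.3 ± 4.11, P4ha1 at 14.7 ± 1.67 and Vhl at 12.03 ± 2.14 CPM per kb (SD, n = 3), followed by Egln3, Epas1, Egln1, Ak4 and Kdm5b. Neighbours whose ranges overlapped were Hif1a and Bnip3, and Egln3 and P4ha1, in Piezo1 KO. In control they were P4ha1 and Vhl, and Epas1 and Egln1. Kdm5b was lowest in both groups, at 3.16 ± 0.362 CPM per kb in Piezo1 KO and 1.88 ± 0.263 CPM per kb in control (SD, n = 3 each). Merged exons of all annotated transcripts measure 16.55 kb for Kdm5b and 2.27 to 5.90 kb for the others, so a gene with many rarely used exons has its per-kb level understated.

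**Figure D4:**
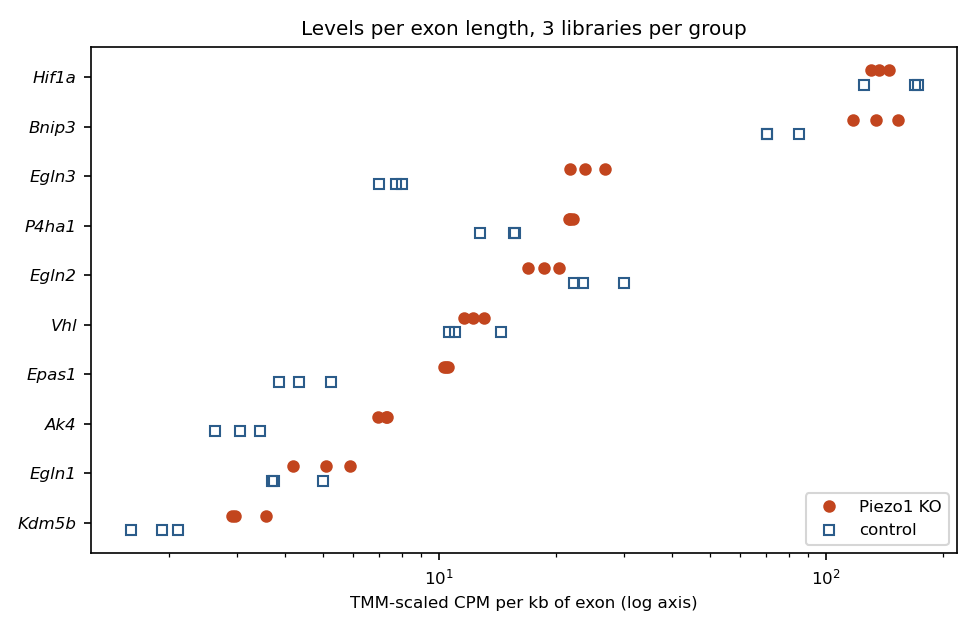
TMM-scaled CPM per kb of exon on a log axis for each member, with Piezo1 KO libraries as filled circles above control libraries as open squares. Hif1a and Bnip3 have the highest levels in both groups, and Egln3 has a mean of 24.1 in Piezo1 KO and 7.57 in control.

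Across the 6 libraries the 6 members that were higher in Piezo1 KO without overlap followed each other closely. Between pairs of them the Pearson r of log2 CPM lay between 0.84 and 0.98. These values include the difference between the groups. After subtraction of each group's mean the same pairs ranged from −0.58 (Epas1 with Egln3) to 0.77 (Epas1 with P4ha1). Hif1a had a within-group r of 0.96 with P4ha1 and −0.81 with Egln1. These are descriptions over 6 libraries whose total counts differed. Effects of depth or preparation on these values were not separated.

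The 5 genes most like Egln3 over the 6 libraries, by Pearson r of log2 CPM, were Hba-a1 (alpha globin, r = 0.998), Gimap4 (a lymphocyte GTPase, 0.998), Il1r2 (the decoy IL-1 receptor, 0.994), Tec (a kinase of antigen receptor signalling, 0.993) and Sae1 (a subunit of the SUMO-activating enzyme, 0.992). Within groups these values were 0.85, 0.98, 0.60, 0.49 and 0.58. Sae1 had nearly the same level in both groups, 497 ± 3.04 CPM in Piezo1 KO and 474 ± 0.218 CPM in control (SD, n = 3 each). The 5 genes most like Hif1a were Peak1, Ptprs, Tmed8, Tcf12 and Ctnna1, with r between 0.988 and 0.993 over the libraries and 0.98 to 1.00 within groups. In each of them, as in Hif1a, the Piezo1 KO and control ranges overlapped.

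Other genes of the pathway were followed through 5 partly overlapping lists that name 117 genes, of which 100 were tested. The lists were chosen with earlier results of these data known. Their counts, signs and shares, here and below, are therefore descriptions and no independent support. Of these 100 genes 5 rose in Piezo1 KO in edgeR, 0 fell and 95 did not pass. Of all tested genes 1.00% were called higher and 0.509% lower. By unadjusted p under 0.05 (edgeR), 31 were higher and 2 lower, where 6.30% of all tested genes were higher and 6.91% lower by that cut. The DESeq2 Wald test called 19 higher and 1 lower (Hmox1, the heme-degrading enzyme). Of all 13326 genes it gave an adjusted p, it called 353 higher and 241 lower (4.46% in both directions). Limma-voom called 15 higher and 0 lower. Of all 14149 genes it called 267 higher and 172 lower (3.10% in both directions). The edgeR count of list genes that rose was 1 without Piezo1 KO replicate 1 or control replicate 1, 2 without Piezo1 KO replicate 2 or 3, 12 without control replicate 2 and 4 without control replicate 3. Over all tested genes 25, 22 and 35 rose without Piezo1 KO replicates 1, 2 and 3. Without control replicates 1, 2 and 3 these counts were 24, 209 and 145.

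Among 19 partners and regulators of HIF, 1 rose, 0 fell and 18 did not pass in edgeR, with a median log2 fold change of 0.10. The gene that rose was Cited2, a HIF target whose product competes with HIF for the coactivators p300 and CBP. It was at 143, 136 and 127 CPM in Piezo1 KO replicates 1, 2 and 3, against 56.5, 49.3 and 67.7 CPM in control replicates 1, 2 and 3. Its log2 fold change was 1.23 ± 0.13 (SE, adjusted p = 0.00473, edgeR), with an adjusted p of 0.0526 without Piezo1 KO replicate 1 and 0.0594 without control replicate 1, and from 6.9e-14 to 0.0594 over 12 alternatives. The dimer partner Arnt was at 60.7 ± 4.31 CPM in Piezo1 KO and 64.6 ± 9.67 CPM in control, and the asparaginyl hydroxylase gene Hif1an at 57.7 ± 5.25 CPM in Piezo1 KO and 63.2 ± 10.4 CPM in control (SD, n = 3 each), with overlapping ranges in both genes. These and the unpassed targets named next were picked after their values were seen.

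Among 36 tested non-glycolytic HIF targets outside the 10 members, 1 rose, 0 fell and 35 did not pass in edgeR, while DESeq2 called 9 higher and 1 lower and limma-voom 7 higher and 0 lower. Of them 29 had a positive log2 fold change, the median was 0.23, and 47.2% had groups that did not overlap, against 20.6% of all tested genes. Bnip3l, the NIX mitophagy receptor and the paralog of Bnip3, rose to 131 ± 11.4 CPM in Piezo1 KO, against 82.7 ± 6.65 CPM in control (SD, n = 3 each). Its log2 fold change was 0.66 ± 0.11 (SE, adjusted p = 0.0259, edgeR). The adjusted p was 0.0985, 0.162 and 0.122 without Piezo1 KO replicates 1, 2 and 3 and 0.135 without control replicate 1, and ran from 1.54e-05 to 0.162 over 12 alternatives, 7 of which it passed.

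Several further targets had separate groups without passing in edgeR. Of these Ndrg1, Ankrd37, Hilpda, Ero1l, Fam162a and Higd1a were called higher by both DESeq2 and limma-voom. The adjusted p of Ero1l, Fam162a and Higd1a was 0.0664, 0.148 and 0.111 in edgeR. Ndrg1, a stress-induced gene, was at 34.2 ± 2.28 CPM in Piezo1 KO and 21.2 ± 3.24 CPM in control, and Ankrd37, a small ankyrin-repeat gene, at 18.0 ± 1.22 CPM in Piezo1 KO and 10.1 ± 2.05 CPM in control (SD, n = 3 each, adjusted p = 0.0564 and 0.0612, edgeR). Hilpda, a lipid droplet protein gene, was at 82.8 ± 12.8 CPM in Piezo1 KO and 52.7 ± 5.47 CPM in control (SD, n = 3 each, adjusted p = 0.0689, edgeR). Vegfa, the angiogenic growth factor, was at 33.2 ± 0.417 CPM in Piezo1 KO and 27.7 ± 3.39 CPM in control (SD, n = 3 each, adjusted p = 0.393, edgeR), with groups that did not overlap. Plod1, a lysyl hydroxylase, was at 13.2 ± 0.833 CPM in Piezo1 KO and 13.2 ± 0.837 CPM in control, with overlapping groups, and Hmox1 was lower, at 39.8 ± 1.72 CPM in Piezo1 KO and 56.97 ± 7.17 CPM in control (SD, n = 3 each), without passing in edgeR (adjusted p = 0.0847).

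The glycolytic HIF targets were counted beside them. Of 21 tested genes 3 rose, 0 fell and 18 did not pass in edgeR, while DESeq2 called 9 higher and limma-voom 7. The log2 fold change was positive in 20 of them, against 7498 of the 14149 tested genes, and the median was 0.35. Those that rose were Slc2a3 (glucose transport), Aldoc (an aldolase) and Slc16a3 (lactate export), at log2 fold changes of 1.35 ± 0.11, 1.55 ± 0.29 and 0.54 ± 0.10 (SE, adjusted p = 0.00102, 0.0420 and 0.0429, edgeR). Slc2a3 passed in all 12 alternatives (highest adjusted p 0.0247). Aldoc did not pass without Piezo1 KO replicate 1, 2 or 3 or control replicate 1 or 3 (adjusted p from 0.0771 to 0.199, and from 1.43e-05 over all 12). Slc16a3 passed in 5 of 12. It did not pass without any of the same 5 libraries (adjusted p from 0.0546 to 0.267, and from 0.000129 over all 12) or with no filter on low counts (0.0511).

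Relatives of the members were counted as well. Of 11 tested members of their gene families, 1 rose (Bnip3l again) and 10 did not pass, with a median log2 fold change of 0.09. The related Ak3 was at 75.3 ± 3.58 CPM in Piezo1 KO and 71.5 ± 5.09 CPM in control (SD, n = 3 each). P4ha2 had a log2 fold change of 0.06 ± 0.18, Kdm5a one of 0.12 ± 0.10 and Kdm5c one of 0.09 ± 0.15 (SE). Of 23 other 2-oxoglutarate dioxygenases 0 passed in edgeR, DESeq2 or limma-voom, 2 had an unadjusted p under 0.05 in edgeR, where 13.2% of all tested genes did, and the median was 0.08. That count is no larger a share than in all genes. The 2 genes, Jmjd6 and Kdm3a, also stand in the list of non-glycolytic HIF targets. Among the 23 dioxygenases the smallest p was that of Jmjd6, at 86.3 ± 3.65 CPM in Piezo1 KO and 71.6 ± 3.98 CPM in control (SD, n = 3 each, adjusted p = 0.233, edgeR).

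**Figure D5:**
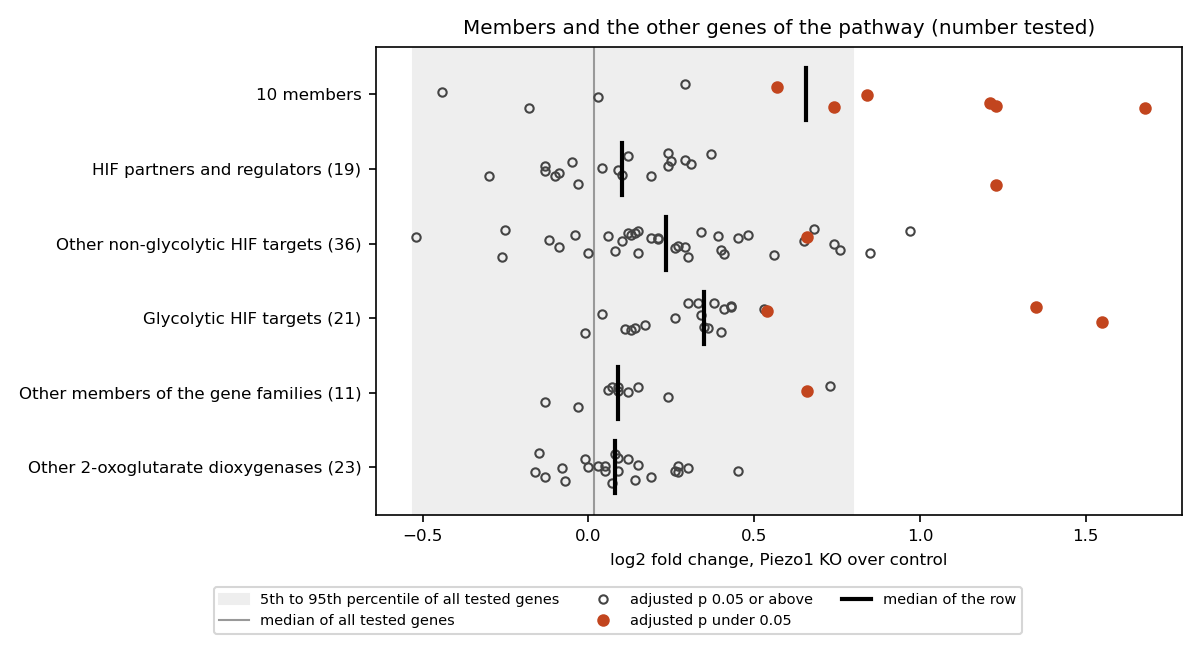
Log2 fold change, Piezo1 KO over control (x axis), of the 10 members and of the tested genes of each list (rows), with filled points for adjusted p under 0.05 in edgeR, a black bar at each row's median, and the 5th to 95th percentile of all tested genes in grey. The medians run from 0.66 for the members through 0.35 for glycolytic targets and 0.23 for other non-glycolytic targets to 0.08 for other 2-oxoglutarate dioxygenases.

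The cell type was checked against its markers. All 14 ILC2 markers were measured, with summed levels of 13820 to 14776 CPM in Piezo1 KO and 11991 to 12874 CPM in control. The sum is carried by Il5 and Il2ra, and single markers went both ways: 1 rose (Il17rb) and 2 fell (Il7r and Icos) in edgeR. Il7r, which drives Cre in both groups, was at 32.8 ± 2.03 CPM in Piezo1 KO and 66.8 ± 8.25 CPM in control, and Icos at 234 ± 12.3 CPM in Piezo1 KO and 358 ± 13.1 CPM in control (SD, n = 3 each). Gata3, the defining factor of ILC2s, was at 737 ± 46.2 CPM in Piezo1 KO and 986 ± 42.9 CPM in control (SD, n = 3 each), without passing (adjusted p = 0.0612, edgeR). Endothelial cells are a strong source of Epas1, and their part in its levels was not tested. Of 8 endothelial markers Ramp2 and Egfl7 were among the genes analysed. Their sum was 7.94 to 9.40 CPM in Piezo1 KO and 5.89 to 8.24 CPM in control. Of 8 macrophage and monocyte markers 7 were analysed, with a sum of 4.02 to 7.53 CPM in Piezo1 KO and 5.33 to 12.8 CPM in control. Erythroid and platelet markers (5 of 9 analysed) summed to 26.8 to 31.4 CPM in Piezo1 KO and 4.45 to 5.40 CPM in control, led by Hba-a1. The difference lay in the alpha globin genes Hba-a1 and Hba-a2. Hbb-bt, Pf4 and Ppbp averaged 0.2555, 0.0768 and 0.0568 CPM in Piezo1 KO and 0.2182, 0.281 and 0.0847 CPM in control. Granulocyte and mast cell markers (4 of 10) summed to 4.02 to 5.39 CPM in Piezo1 KO and 8.24 to 12.4 CPM in control, and epithelial markers (3 of 7) to 16.1 to 20.9 CPM in Piezo1 KO and 11.97 to 17.8 CPM in control. Fibroblast markers (2 of 6, mostly Pdgfrb) summed to 5.47 to 8.03 CPM in Piezo1 KO and 0.675 to 1.56 CPM in control. Lymphoid markers other than those of ILC2s also differed. T cell markers (6 of 10) summed to 59.5 to 67.5 CPM in Piezo1 KO and 42.2 to 50.7 CPM in control. Of these Lck, a kinase, averaged 37.6 ± 4.34 CPM in Piezo1 KO and 13.2 ± 1.95 CPM in control, while the T cell receptor gene Cd3g averaged 21.7 ± 3.44 CPM in Piezo1 KO and 27.1 ± 4.21 CPM in control (SD, n = 3 each). Summed B and plasma cell markers (4 of 8, mostly Ighm) were at 82.0 to 105 CPM in Piezo1 KO and 35.5 to 42.1 CPM in control, and NK cell and ILC1 markers (3 of 7, mostly Gzmb) at 203 to 257 CPM in Piezo1 KO and 86.2 to 114 CPM in control. Tbx21, the defining factor of ILC1s, was at 0 CPM in all 3 Piezo1 KO libraries and at 1.06, 1.31 and 1.499 CPM in control replicates 1, 2 and 3. The part of these shifts in the differences of the 10 genes was not tested.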

How the data were processed

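RNA of 6 libraries of lung ILC2s was sequenced after cDNA synthesis from 10 ng of total RNA each, per the labels. The deposited table gives estimated counts for each gene, produced by the authors and not scaled between libraries. The build is mm10, per the submitters' processing notes. The deposited table carries the name of the Partek software, and the aligner, annotation and strand setting behind it are named in no label or header. Whether reads of members were kept apart from those of overlapping genes, such as Hif1a from its antisense gene Gm15283 (0.300 to 1.24 CPM), is therefore not known. At a tolerance of 1e-09, counts of Hif1a, Egln2 and Bnip3 were not whole in any of the 6 libraries, and those of Ak4, P4ha1 and Kdm5b were not whole in 4, 5 and 2 libraries. The distance from a whole number reached 0.40 for Hif1a, 0.41 for Bnip3 and at most 0.04 for the others. Groups follow the genotype labels, and libraries were matched by their description.

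Counts were rounded. Genes were kept by filterByExpr (14149 of 18057) and scaled by TMM. The test was edgeR 4.0.16's quasi-likelihood F test (R 4.3.3), without covariates, with p-values adjusted by Benjamini-Hochberg across all tested genes at 0.05. The SE is the absolute log2 fold change over the square root of F. Log2 CPM used a prior count of 2. Exon lengths and positions came from GENCODE M21 on GRCm38 (mm10), and promoter sequences from RefSeq on GRCm38.p6, with a window for 9 of the 10 members. No 2 replicates of a group agreed within sampling noise (chi-square per gene 9.97 to 55.3). The fit was also run on simulated counts that gave every gene the same dispersion (spread between replicates). That run does not show the error rates in these libraries.

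The members and lists were chosen with earlier results of these data known. Named genes are the members, Piezo1, up to 6 called genes per list by smallest p (or, with 0 called, the gene of smallest p), and the 5 genes most like Egln3 and Hif1a among tested, not merely predicted genes averaging 3 or more in log2 CPM. Others were picked after their values were seen. Alternatives were RLE size factors, no TMM scaling (members alone), no filter, a filter of 1 CPM in each library of 1 group, a replicate block, each library left out, DESeq2 1.42.0, and voom with sample weights in limma 3.58.1.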

Additional observations from a re-analysis of the deposited data

How the results depend on the processing

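With all 6 libraries 214 genes passed in edgeR, 142 higher and 72 lower in Piezo1 KO. The count was 594 in DESeq2 (353 higher, 241 lower) and 439 in limma-voom (267 higher, 172 lower). With 1 library left out it ran from 33 (without Piezo1 KO replicate 2) to 297 (without control replicate 2), with 22 to 209 higher and 10 to 92 lower. Among the 100 tested list genes 5 were called higher, against 8 under the stricter filter of 1 CPM, 19 in DESeq2, 15 in limma-voom and 1 to 12 with 1 library left out. The count called lower was 0, with 1 in DESeq2. Called members numbered 2 to 6 of 10 with 1 library left out. None of the 130 recomputed fold changes of the 10 members moved by more than the spread between replicates (pooled SD of log2 CPM within groups). For fits with 1 library left out this was close to given in advance. Leaving out 1 of 3 libraries moves a group mean by less than that spread, so nothing is read from it.

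The replicate numbers did not pair the libraries: deviations of Piezo1 KO and control libraries of one number correlated at −0.023, −0.183 and −0.008 for numbers 1, 2 and 3. Under the replicate block 52 genes passed (37 higher, 15 lower), with 3 list genes higher and 4 of the members called. Bnip3l and Slc16a3 did not pass with the block (adjusted p = 0.147 and 0.185, edgeR). The counts behind the members' values ran from 190 to 33584, so counting error weighs most on Ak4 in control replicate 3.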
